A study of Mus musculus with 24 samples.

Results

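Potassium channel genes were followed through the nucleus accumbens (Acb) and dorsal striatum (DS) of wild-type and rpS6 knockin mice, in whole lysates and in heavy polysomal fractions. Members were the rows of the count table whose symbol begins with Kcn and a letter from a to v, leaving out *Kcne2* and *Kcnj13*, with a mean of at least 50 reads over the 24 libraries. The symbol rule found 95 genes, of which 62 reached that mean and 33 did not, out of 24079 genes in the table. Just inside the minimum were *Kcnh6* (50.3 reads), *Kcnj5* (50.6) and *Kcnk6* (51.8), and just outside it were *Kcnmb2* (39.6), *Kcnk4* (37.3) and *Kcng2* (36.8). The members were 10 inward rectifiers, 9 auxiliary subunits, 7 subunits of the EAG, ERG and ELK group, 7 channels activated by calcium or sodium, 6 silent Kv subunits, 5 Kv1, 5 two-pore-domain, 4 Kv3, 3 Kv4, 3 Kv7 and 2 Kv2 subunits, and the noncoding *Kcnq1ot1*. All 62 passed the filter on low counts in every comparison.

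The knockin mice carry alanine in place of the phosphorylatable serines of ribosomal protein S6 in all cells, and the wild-type mice were littermates on the same mixed C57Bl/6/Sv129/ICR background, of both sexes. Each library was made from a pool of mice, and the number of mice per pool is given differently within the study. For each region and genotype, 3 libraries were made from RNA sampled before the sucrose gradient (whole lysate) and 3 from RNA bound to more than 4 ribosomes (heavy polysomes), giving 8 groups of 3. The labels number replicates but do not say how the pools relate between regions or genotypes, so p-values measure the spread between pools. Regions were dissected from different planes of the brain. Assigned reads ranged from 9280589 to 34703044 per library, no library was a copy of another, and sequencing was repeated over several runs that the labels do not assign to libraries. *Rps6* stood at 269.8 to 488.4 CPM (reads scaled to library size by the trimmed mean of M values over all 24 libraries) in wild-type and at 304.5 to 441.5 CPM in knockin libraries, and since the mutation exchanges codons, this level does not check the genotype labels. All 13 medium spiny neuron markers found in the table were detected in every group, with summed levels from 4944 to 7963 CPM.

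Potassium channels let potassium leave or enter cells and so set the resting potential, shape the action potential and control how often a neuron fires. Voltage-gated (Kv) channels are built from pore-forming alpha subunits, some of which are electrically silent and act only together with Kv2 subunits, while auxiliary Kv-beta, KChIP and BK-beta proteins change their gating and traffic. Medium spiny neurons, the projection neurons of the striatum, are held at a strongly negative resting potential by inwardly rectifying Kir2 channels, and slowly inactivating A-type and Kv1 currents delay their first spike. Kir3 channels are opened by G proteins downstream of inhibitory receptors, and Kir4.1 with Kir5.1 carries potassium uptake in astrocytes.

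Per kilobase of transcript, the most abundant members in whole lysates were cytoplasmic partners of Kv channels rather than pores. *Kcnab2*, which encodes the Kv-beta2 subunit of Kv1 channels, stood at 143 ± 26.1 CPM per kilobase (SD over the 12 whole lysate libraries), followed by *Kcnab1* (Kv-beta1) at 108 and *Kcnip2*, the KChIP2 subunit of Kv4 channels, at 108. The highest pore-forming transcript was *Kcnk2*, which encodes the mechanically and lipid-gated leak channel TREK-1, at 82.9 ± 18.6 CPM per kilobase. It was followed by the Kv1.1 gene *Kcna1* at 54.2 ± 6.90 and by *Kcnj4*, the Kir2.3 gene, at 48.7 ± 5.29. Leading members of other families were *Kcnc1* (Kv3.1, fast repolarization) at 39.3, *Kcnd2* (Kv4.2, A-type current) at 30.1, the silent subunit gene *Kcnf1* at 20.7, *Kcnh3* of the ELK group at 14.4, *Kcnq5* of the Kv7 group (M current) at 13.5 and *Kcnma1* (the BK channel) at 12.7 CPM per kilobase. The 5 highest of the 61 members with a transcript length held 45.3% of the summed level per kilobase, the median member stood at 9.36 and 7 members were under 1. The ranges over libraries of *Kcnab1* and *Kcnip2*, and of *Kcna1* and *Kcnj4*, overlapped, so the order of such neighbours is not settled. The order also rests on the length of 1 chosen transcript per gene, which was 1548 bases for *Kcnk2*, 1552 for *Kcnab2* and 4031 for *Kcna1*. Without division by length, mean levels in wild-type Acb whole lysates were 112 CPM for *Kcnk2* and 207 for *Kcna1*. There *Kcnab2* stood at 183 and *Kcnab1* at 260 CPM.

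**Figure D1:**
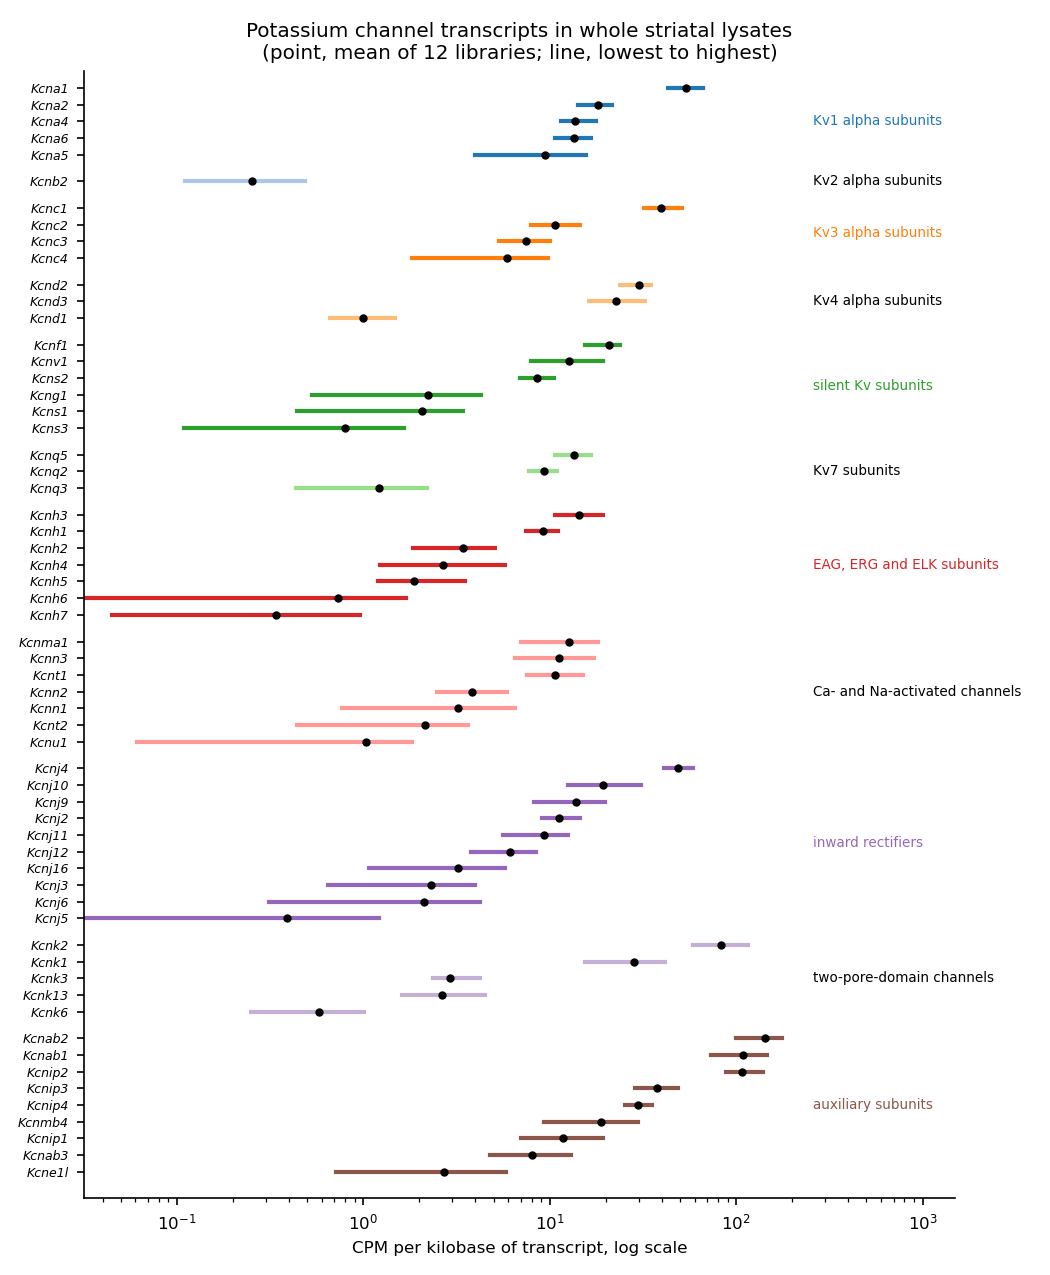
Mean level of each of 60 potassium channel transcripts in whole lysates, in CPM per kilobase of transcript on a logarithmic axis, grouped by family, with lines from the lowest to the highest of the 12 libraries. Kcnab2, Kcnab1 and Kcnip2 lie at 108 or more after rounding, the median member lies at 9.36, and the lines of Kcnh6 and Kcnj5 run off the left edge because their lowest library lies below the axis.

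The comparison of Acb with DS asked which channel transcripts separate both parts of the striatum. It was made separately in whole lysates and heavy polysomes of each genotype, that is, in 4 comparisons that share no library. By the study's methods the input RNA was kept from the lysates that were then fractionated, so the 4 are not independent sets of mice. In wild-type whole lysates 8 members were higher in the Acb and 13 lower, 12.9% and 21% of the 62, against 6.54% and 6.15% of the 15557 genes tested (edgeR quasi-likelihood test, Benjamini-Hochberg adjusted p under 0.05). Here and below, members had a mean of at least 50 reads while the genes tested needed 15 summed reads, so shares are not matched for depth. *Kcnj5*, among the 8 higher, and *Kcnh7*, among the 13 lower, reached that mean only through the region where each was higher. In knockin whole lysates 4 members were higher and 15 lower, against 4.84% and 6.03% of all genes. In heavy polysomes 8 members were higher and 5 lower in wild-type mice, against 4.72% and 3.43% of all genes, and 8 were higher and 5 lower in knockin mice, against 7.89% and 10.7%. With a trend on coding length removed from each library, the heavy polysome counts were 8 higher and 17 lower in wild-type and 10 higher and 13 lower in knockin mice. In wild-type mice this removal also lowered the median difference of all genes. The share of all genes that passed under this setting is not given, so these counts are not a result about the members. Altogether 29 members passed in at least 1 comparison, 10 of them higher and 19 lower in the Acb, and 0 passed in both directions. The matching shares of all genes over the 4 comparisons are not given, so these totals only describe the members. *Kcna5*, *Kcnd3*, *Kcnj10* and *Kcnj16* were higher and *Kcnj9* and *Kcnmb4* lower in all 4 comparisons.

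Other cell types differed between the dissected regions as well. Summed levels of 8 markers of cortical excitatory neurons were 112 to 251 CPM in Acb libraries and 794 to 1070 CPM in DS libraries, with 0 markers at 0 reads in a whole group, and 6 of 8 were lower in the Acb in each comparison. In wild-type whole lysates, 6 of 8 astrocyte markers (2459 to 2960 CPM summed in the Acb, 1777 to 1885 in the DS), 6 of 8 microglia markers (225 to 281 against 130 to 153) and 4 of 10 striatal interneuron markers (349 to 405 against 243 to 326) were higher in the Acb, as were 4 of 8 oligodendrocyte markers, 1 of 8 endothelial and mural cell markers and 3 of the 7 choroid plexus markers tested (38.2 to 67.5 against 13.4 to 21.6). Of medium spiny neuron markers 3 were higher and 5 lower. A lower level in these bulk samples can come from fewer cells of a type or from less RNA per cell, which cannot be told apart, and the part of these cell types in the channel results below was not tested.

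The inward rectifiers split within 1 family. In wild-type whole lysates the genes of Kir3.1, Kir3.2 and Kir3.3 were lower in the Acb. That of Kir3.4, *Kcnj5*, was higher, but it reached the read minimum only through its Acb libraries. *Kcnj3*, which encodes Kir3.1, stood at 7.42, 4.77 and 3.37 CPM in wild-type Acb whole lysates and at 18.4, 20.0 and 19.1 CPM in the DS. The groups did not overlap, and the difference was -1.83 on the log2 scale (SE 0.31, adjusted p = 3.4e-05), while in the other 3 comparisons it was between -0.88 and -0.30 and did not pass.

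*Kcnj6*, the Kir3.2 gene, stood at 2.02, 4.37 and 0.963 CPM in the Acb against 8.10, 9.43 and 7.59 CPM in the DS (log2 -1.72, SE 0.49, adjusted p = 0.0137). The groups did not overlap. It was lower also in knockin whole lysates (log2 -2.36, SE 0.42, adjusted p = 7.89e-05) and in wild-type heavy polysomes (-1.58, SE 0.45, adjusted p = 0.039), and in both wild-type comparisons it lost the call when any of 4 of the 6 libraries was left out (replicates 1 and 3 of the Acb and 1 and 2 of the DS in whole lysates, 2 and 3 of the Acb and 1 and 2 of the DS in heavy polysomes, adjusted p up to 0.0791 and 0.159).

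*Kcnj9*, the Kir3.3 gene, stood at 34.9, 36.3 and 31.9 CPM in wild-type Acb whole lysates and at 61.8, 70.3 and 56.8 CPM in the DS, without overlap. The difference was -0.84 (SE 0.17, adjusted p = 2.9e-04) and lay between -0.76 and -0.70 in the other 3 comparisons, all of which passed. In wild-type heavy polysomes the groups overlapped, since 1 DS library (57.2 CPM) stood below the highest Acb library (57.6). In knockin heavy polysomes the adjusted p was 0.0105 with all libraries and 0.0555 without replicate 2 of the DS.

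*Kcnj5*, which encodes Kir3.4, the partner of Kir3.1 in the atrial acetylcholine-gated channel, was rare. It had 52, 70 and 40 reads in wild-type Acb whole lysates and 14, 4 and 20 in the DS, or 2.84, 5.66 and 4.81 against 0.761, 0.275 and 1.69 CPM. All Acb libraries lay above all DS libraries. In heavy polysomes the Acb libraries held 164, 122 and 152 reads in wild-type and 97, 242 and 75 in knockin mice, against 2, 0 and 26 and 4, 44 and 12 in the DS. The mean of *Kcnj5* over the 24 libraries (50.6 reads) reached the minimum of 50 only through the Acb. The rule that chose the members therefore favoured its regional difference.

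The differences of *Kcnj5* were 3.52 (SE 0.81, adjusted p = 0.0108) and 2.75 (SE 0.57, adjusted p = 0.00195) in heavy polysomes of wild-type and knockin mice. In wild-type whole lysates the difference of 2.32 (adjusted p = 0.0479) was lost when any of 5 of the 6 libraries was left out (all but replicate 3 of the DS, adjusted p up to 0.209), with the filterByExpr filter or with all 24 libraries in 1 fit, and in wild-type heavy polysomes it was lost without replicate 2 or 3 of the Acb (up to 0.0781). In knockin whole lysates the 3 Acb libraries held 39, 11 and 1 reads and the difference did not pass.

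*Kcnj10* encodes Kir4.1, the main potassium channel of astrocytes, and *Kcnj16* its partner Kir5.1. *Kcnj10* stood at 142, 134 and 113 CPM in wild-type Acb whole lysates and at 73.4, 71.0 and 81.8 CPM in the DS (log2 0.81, SE 0.14, adjusted p = 2.1e-05). *Kcnj16* stood at 15.7, 21.3 and 19.5 against 8.10, 7.02 and 7.34 CPM (log2 1.35, SE 0.28, adjusted p = 5.8e-04). Neither gene overlapped between regions there, and the differences in the other comparisons were 0.90 to 1.11 for *Kcnj10* and 1.11 to 1.74 for *Kcnj16*. In knockin whole lysates the call of *Kcnj16* (adjusted p = 0.0377) was lost when any of 4 libraries was left out (replicates 1 and 3 of the Acb, 2 and 3 of the DS), with an adjusted p of up to 0.226, and by DESeq2. The astrocyte markers given above moved in the same direction as both genes, as did markers of several other cell types, and their part was not tested.

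**Figure D2:**
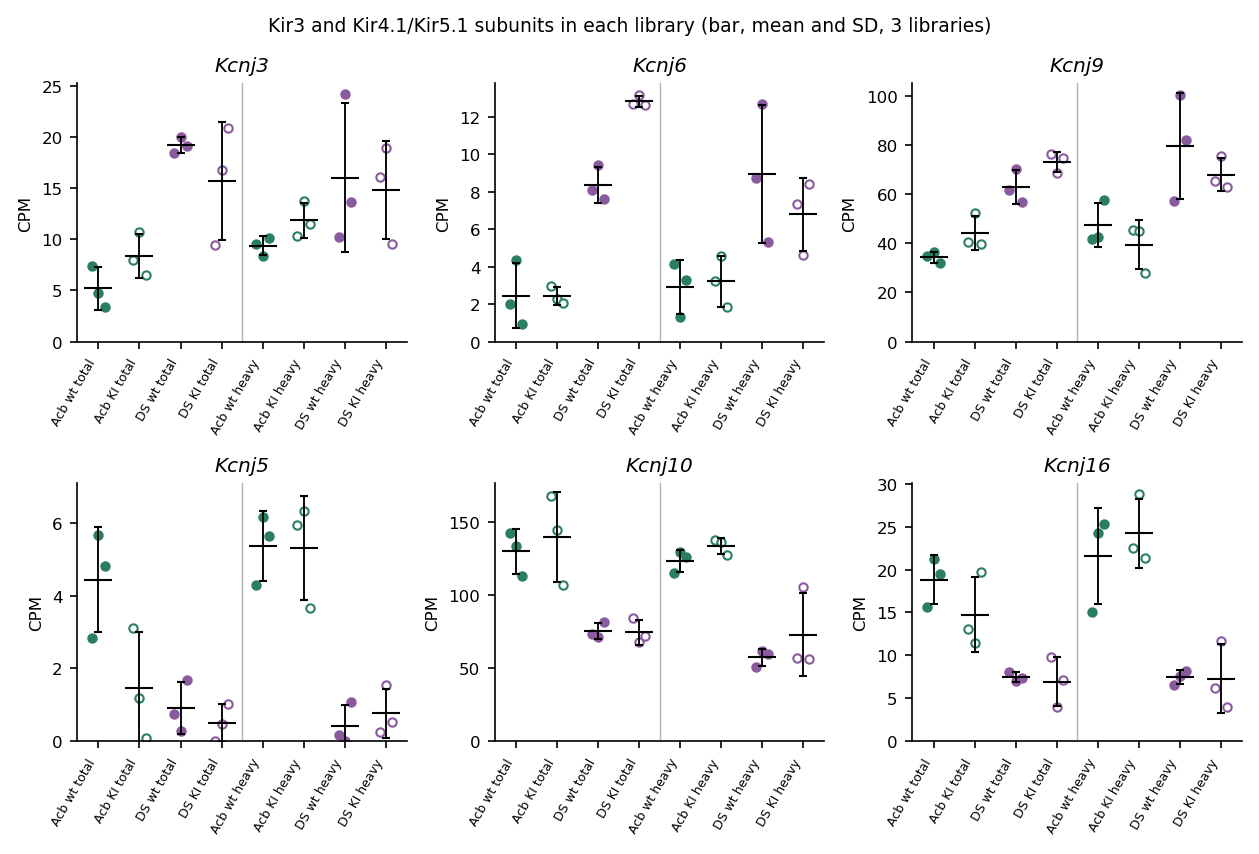
CPM of 6 inward rectifier genes in each of the 24 libraries by group, whole lysates left of the grey line and heavy polysomes right of it, with Acb in green, DS in purple, knockin libraries as open circles, and bars for the mean and SD of 3 libraries. Kcnj3, Kcnj6 and Kcnj9 lie lower and Kcnj5, Kcnj10 and Kcnj16 higher in wild-type Acb than in wild-type DS whole lysates, where no group overlaps.

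*Kcnj9* and *Kcnj10* are neighbours on chromosome 1 (mm10), separated by 11.9 kb and transcribed away from each other, yet their regional differences had opposite signs in all 4 comparisons. *Kcnj9* spans 172320508 to 172329322 on the minus strand and *Kcnj10* spans 172341210 to 172374085 on the plus strand. Their promoter windows (RefSeq, GRCm38.p6, 250 bases before to 50 after the start) are shown because this pair carries both directions of the regional difference side by side. CpG sites are in capitals, the window of *Kcnj9* is chr1:172329273-172329572 on the minus strand and that of *Kcnj10* is chr1:172340960-172341259 on the plus strand.
Kcnj9: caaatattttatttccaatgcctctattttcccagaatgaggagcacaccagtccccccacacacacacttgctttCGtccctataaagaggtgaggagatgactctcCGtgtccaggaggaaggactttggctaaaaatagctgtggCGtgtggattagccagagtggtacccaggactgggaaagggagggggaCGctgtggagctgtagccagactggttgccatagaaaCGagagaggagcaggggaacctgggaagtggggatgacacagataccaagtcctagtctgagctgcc
Kcnj10: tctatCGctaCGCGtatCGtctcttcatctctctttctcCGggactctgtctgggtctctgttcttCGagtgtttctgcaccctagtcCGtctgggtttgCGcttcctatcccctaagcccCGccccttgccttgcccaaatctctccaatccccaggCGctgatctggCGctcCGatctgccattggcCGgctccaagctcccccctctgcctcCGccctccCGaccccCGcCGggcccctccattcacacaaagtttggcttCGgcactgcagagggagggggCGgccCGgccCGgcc
The *Kcnj9* window holds 5 CpG sites and 52.3% GC, and the *Kcnj10* window 21 CpG sites and 63.7% GC, where the median over 32851 mouse windows of this length was 7 sites and 52.7%. Of all windows, 43.6% held no more CpG sites than that of *Kcnj9* and 76.9% no more than that of *Kcnj10*. Searched on either strand, TATAAA was found in the *Kcnj9* window and not in that of *Kcnj10*, with 13.6% of all windows holding it, and CCAAT was found in both, with 37.4% of all windows holding it. Of the 62 members, 44 had a window in this table, and *Kcnj16* and *Kcnj2*, 38.2 kb apart on chromosome 11, are a second pair of neighbouring Kir genes.

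Of the Kv1 genes, *Kcna5* (chromosome 6, 126532551 to 126535555) was higher in the Acb in each of the 4 regional comparisons. It encodes Kv1.5, a delayed rectifier known from cardiac atria and microglia. It stood at 36.2, 41.3 and 34.9 CPM in wild-type Acb whole lysates and at 16.5, 11.4 and 16.5 CPM in the DS (log2 1.37, SE 0.22, adjusted p = 1e-05). In heavy polysomes it stood at 57.7, 57.5 and 61.5 CPM in the Acb and 17.9, 16.6 and 19.0 CPM in the DS (log2 1.73, SE 0.18, adjusted p = 1.3e-05). No Acb library overlapped a DS library of the same genotype and kind of RNA, the knockin differences were 1.13 and 1.34, and the call held in all 4 comparisons whichever library was left out.

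The microglia markers given above were higher in the Acb, as were markers of several other cell types, and their part in the *Kcna5* difference was not tested. *Kcnk13*, the gene of the microglial leak channel THIK-1, stood at 9.61, 5.82 and 8.30 CPM in wild-type Acb whole lysates. In the DS it stood at 8.48, 5.30 and 10.5 CPM, which overlapped. *Kcna1* and *Kcna6* lie in the same gene cluster as *Kcna5*, and neither passed in any regional comparison. *Kcna2*, the Kv1.2 gene, was lower in the Acb in 2 of the 4 comparisons, and in wild-type heavy polysomes (log2 -0.53, adjusted p = 0.0321) it lost the call whichever of the 6 libraries was left out (adjusted p 0.057 to 0.131).

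*Kcnd3*, which encodes the A-type channel Kv4.3, stood at 74.0, 68.6 and 68.0 CPM in wild-type Acb whole lysates and at 48.3, 54.6 and 43.5 CPM in the DS. The groups did not overlap, and the difference was 0.55 (SE 0.16, adjusted p = 0.0119) there, 0.61 in knockin whole lysates, 0.87 in wild-type and 1.12 in knockin heavy polysomes. Without replicate 2 of the Acb the knockin whole lysate call was lost (adjusted p = 0.0579 against 0.00587). The Kv4.2 gene *Kcnd2* did not pass in any of the 4.

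Of the Kv4 partners, *Kcnip2* (KChIP2) was lower in the Acb in 2 comparisons and *Kcnip3* (KChIP3, also known as the calcium-binding repressor DREAM) in 3, while *Kcnip1* (KChIP1) was higher in 1. *Kcnip2* stood at 166, 119 and 116 CPM in knockin Acb heavy polysomes and at 310.0, 313 and 348 CPM in the DS, without overlap (log2 -1.26, SE 0.18, adjusted p = 6.7e-05). *Kcnip1* in wild-type whole lysates stood at 27.0, 28.2 and 35.6 against 18.1, 17.3 and 19.7 CPM (log2 0.74, SE 0.22, adjusted p = 0.0166), a call lost without replicate 3 of the Acb or replicate 1 or 2 of the DS (adjusted p up to 0.0929). *Kcnip3* in knockin heavy polysomes (log2 -0.55, adjusted p = 0.0264) lost its call without replicate 1 or 2 of the Acb or replicate 2 or 3 of the DS (adjusted p up to 0.108).

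The silent Kv subunits were called in 1 direction, lower in the Acb. All 6 silent subunit genes had negative differences in both whole lysate comparisons, as did 37 of the 62 members in wild-type and 39 in knockin mice. There 1 of 6 passed in wild-type and 2 of 6 in knockin mice, where 6.15% and 6.03% of all genes were lower. In heavy polysomes 0 of 6 passed and the signs were mixed. *Kcnf1* (0.03 in wild-type, 0.35 in knockin mice), *Kcns2* (0.20 and 0.05) and, in knockin mice, *Kcng1* (0.21) had positive differences, while the others were negative. *Kcnv1*, which encodes the silent subunit Kv8.1, stood at 41.2, 34.7 and 36.3 CPM in wild-type Acb whole lysates and at 60.9, 62.7 and 64.8 CPM in the DS, with no overlap (log2 -0.72, SE 0.16, adjusted p = 0.00168), and its difference in knockin mice was -0.96. *Kcng1*, the Kv6.1 gene, passed in knockin whole lysates (log2 -1.31, adjusted p = 0.0251), a call lost without replicate 3 of the Acb or replicate 1 or 2 of the DS (adjusted p up to 0.23).

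In the Kv7 group 1 gene passed in 1 comparison. *Kcnq3* was lower in knockin Acb whole lysates (log2 -1.07, SE 0.30, adjusted p = 0.0139), a call lost without replicate 3 of the Acb or replicate 2 or 3 of the DS (adjusted p up to 0.131), and the other 2 Kv7 genes did not pass in any comparison. *Kcnh2*, which encodes the ERG1 channel, stood at 20.9, 20.5 and 23.7 CPM in knockin Acb heavy polysomes and at 10.8, 8.70 and 8.36 CPM in the DS (log2 1.24, SE 0.23, adjusted p = 7.0e-04), and it passed in wild-type heavy polysomes too (1.04, adjusted p = 0.0227). All its Acb heavy polysome libraries lay above those of the DS. Its relative *Kcnh7* (ERG3) went the other way, at 2.13, 1.21 and 0.602 CPM in wild-type Acb whole lysates against 5.22, 6.95 and 4.47 CPM (log2 -2.00, SE 0.63, adjusted p = 0.0285). These rest on 39, 15 and 5 reads in the Acb. The call was lost without replicate 2 or 3 of the Acb or 1 or 2 of the DS (adjusted p up to 0.186). In knockin mice (log2 -1.78, adjusted p = 0.0164) it was lost without replicate 3 of the Acb or 2 of the DS (up to 0.246). *Kcnh7* reached the read minimum for members only through its DS libraries. The rule that chose the members therefore favoured its regional difference in both genotypes.

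Calcium-activated channels differed most often through a small-conductance channel and through the neuronal BK partner. *Kcnmb4*, whose product BK-beta4 slows activation of the BK channel in neurons, stood at 17.4, 21.3 and 20.2 CPM in wild-type Acb whole lysates and at 31.9, 40.9 and 32.6 CPM in the DS (log2 -0.81, SE 0.21, adjusted p = 0.00609). The groups did not overlap, and the difference was -0.96 in knockin whole lysates and -1.23 and -1.29 in heavy polysomes. Without replicate 2 of the DS the call was lost in whole lysates of both genotypes (adjusted p 0.07 and 0.0793). The pore gene *Kcnma1* passed in knockin whole lysates only, at -0.57, and in wild-type heavy polysomes its difference was 0.16.

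*Kcnn3*, the SK3 gene, stood at 31.0, 24.1 and 29.6 CPM in wild-type Acb heavy polysomes and at 4.29, 18.2 and 10.2 CPM in the DS. The groups did not overlap (log2 1.37, SE 0.35, adjusted p = 0.0197), and the call was lost without replicate 2 or 3 of the Acb or replicate 3 of the DS (adjusted p up to 0.099). The difference also passed in knockin heavy polysomes (0.88) and in wild-type whole lysates (0.79, with overlap). In knockin whole lysates it was 0.33 and did not pass.

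Of the two-pore-domain genes, *Kcnk2* (TREK-1) was lower in the Acb in 3 comparisons, with the greatest difference in knockin heavy polysomes (log2 -0.94, SE 0.18, adjusted p = 8.7e-04), where it stood at 114.1, 100.7, 96.04 CPM in the Acb and 161.2, 223.4, 221.7 CPM in the DS without overlap. *Kcnab1* was lower in 3 comparisons, at -0.71 in wild-type whole lysates, -0.57 in knockin whole lysates and -0.65 in wild-type heavy polysomes, where the adjusted p was 0.0129 and rose to 0.0777 at most without replicate 1 or 3 of the Acb. *Kcne1l*, a small single-pass subunit of the KCNE group, stood at 7.59, 8.97 and 7.94 CPM in wild-type Acb whole lysates against 1.74, 2.20 and 1.10 CPM in the DS (log2 2.30, SE 0.51, adjusted p = 0.00108). In wild-type heavy polysomes its difference of 1.32 (adjusted p = 0.0231) was lost without replicate 2 or 3 of the Acb or 1 or 3 of the DS (adjusted p up to 0.151), and in knockin mice it did not pass.

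**Figure D3:**
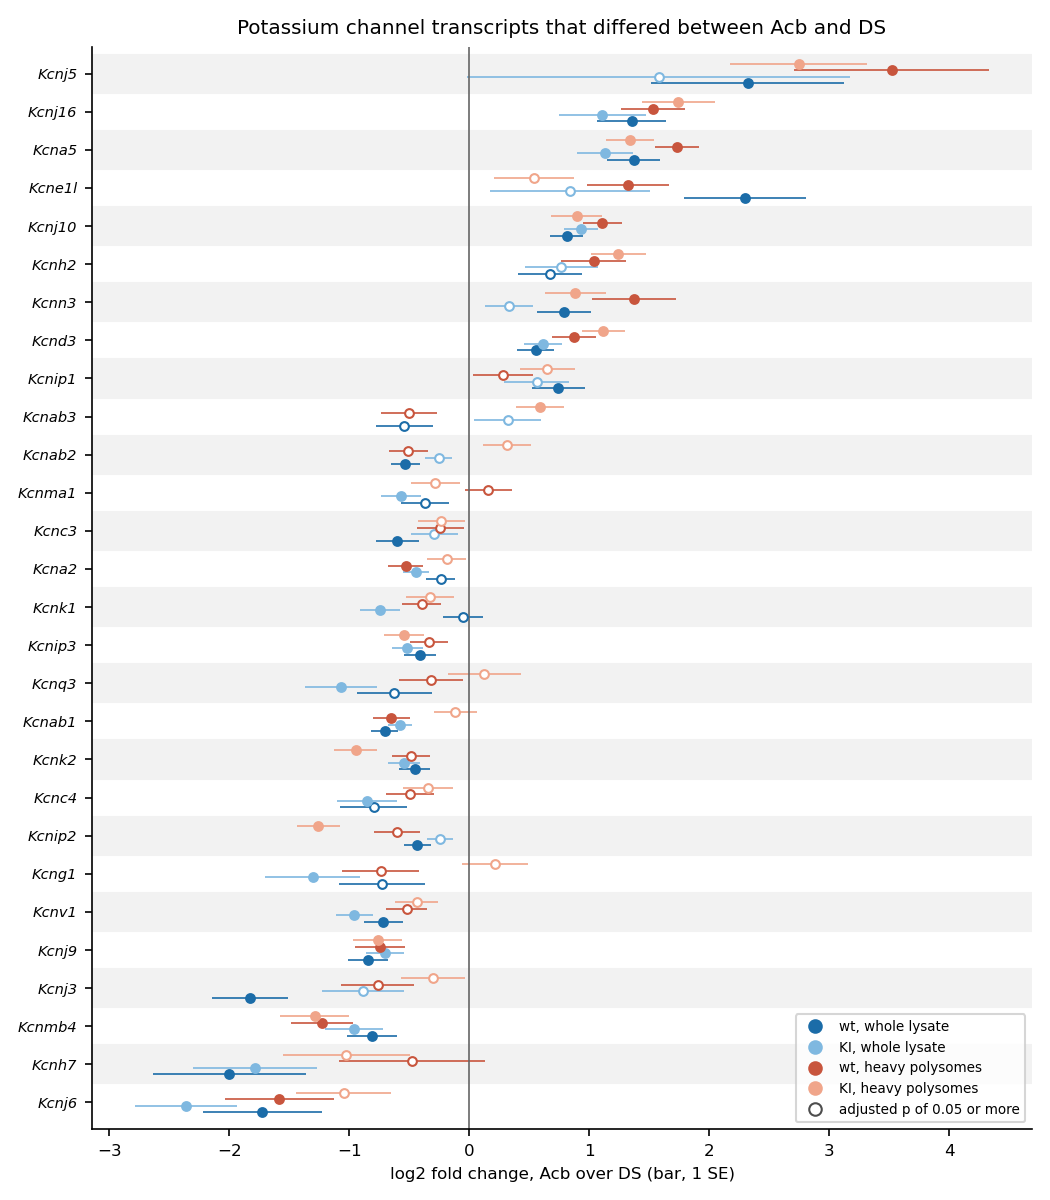
Log2 fold change of Acb over DS, with 1 SE, for 28 of the 29 members that passed in at least 1 of 4 comparisons, where filled points had an adjusted p under 0.05 (edgeR) and colours mark genotype and kind of RNA. All filled points of a gene lie on the same side of 0, and Kcna5, Kcnd3, Kcnj10, Kcnj16, Kcnj9 and Kcnmb4 have 4 filled points.

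The comparison of heavy polysomes with whole lysate asked which channel transcripts were over- or under-represented among RNAs bound to many ribosomes. In wild-type Acb 7 members were higher and 4 lower in heavy polysomes, against 13% and 12.9% of the 16043 genes tested, and in knockin Acb 3 were higher and 2 lower, against 7.70% and 9.50%. In the DS 5 were higher and 5 lower in wild-type mice, against 12.8% and 11.5%, and 2 were higher and 10 lower in knockin mice, against 13.8% and 14.8%. The shares of members were 11.3% and 6.45%, 4.84% and 3.23%, 8.06% and 8.06%, and 3.23% and 16.1% in the same order, of which the last alone exceeded the share of all genes. Members had a mean of at least 50 reads, whereas the genes tested needed only 15 summed reads. These shares are therefore not matched for depth and do not establish an excess of members. Altogether 24 members passed in at least 1 comparison, 10 higher and 14 lower, with 0 in both directions, and the matching shares of all genes are not given. With a trend on coding length removed, the counts were 0 higher and 3 lower in the knockin Acb and 4 higher and 7 lower in the wild-type DS, and with a trend on transcript length removed they were 9 and 7 in the wild-type DS and 5 and 6 in the knockin DS. Shares of all genes under these length settings are not given, so the counts are not set against a background.

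*Kcnj2*, which encodes the strong inward rectifier Kir2.1, was the only member that passed in all 4. In the wild-type Acb it stood at 34.1, 32.8 and 37.0 CPM in heavy polysomes and at 60.7, 58.3 and 62 CPM in whole lysates (log2 -0.85, SE 0.16, adjusted p = 2.9e-04). In the wild-type DS it stood at 11.8, 25.5 and 27.9 against 53.4, 51.8 and 59.2 CPM (log2 -1.32, SE 0.24, adjusted p = 8e-05). The groups did not overlap in any of the 4 comparisons, the knockin differences were -0.80 in the Acb and -0.92 in the DS, and the call held under every alternative fit and without any single library.

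Of the genes of the other strong inward rectifiers, *Kcnj4*, the Kir2.3 gene, stood at 143, 167 and 141 CPM in heavy polysomes and at 108, 109 and 117 CPM in whole lysates of the wild-type Acb (log2 0.38, SE 0.14, adjusted p = 0.0498), with no overlap. It passed also in knockin Acb (0.48, adjusted p = 0.0472) and wild-type DS (0.44, adjusted p = 0.038), and in these 2 comparisons it lost the call when a trend on transcript or coding length was removed. Pairing heavy polysome and whole lysate libraries of the same number with a replicate block ended the call in the knockin Acb (adjusted p = 0.0546), as did DESeq2's size factors (0.0582) and the filterByExpr filter (0.0509). Leaving out 1 library ended the call of *Kcnj4* in the knockin Acb for 5 of 6 libraries (all but replicate 3 of the heavy polysomes, adjusted p up to 0.203) and in the wild-type DS for replicates 1 and 3 of either kind of RNA (up to 0.22). *Kcnj12*, the Kir2.2 gene, was higher in wild-type Acb heavy polysomes (22.2 ± 1.34 against 12.9 ± 3.79 CPM, SD of 3 libraries, log2 0.74, adjusted p = 0.0246), a call lost without replicate 1 or 2 of either kind of RNA (adjusted p up to 0.108). Its difference was 0.54 in the wild-type DS, 0.01 in the knockin Acb and -0.21 in the knockin DS, and none of these passed.

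Every auxiliary subunit gene called higher in heavy polysomes encodes a KChIP protein. *Kcnip4* (KChIP4) stood at 110.0, 109.6 and 116 CPM in heavy polysomes and 74.4, 65.7 and 83.7 CPM in whole lysates of the wild-type Acb (log2 0.54, SE 0.15, adjusted p = 0.00792), and its differences were 0.77 in the knockin Acb and 0.62 in the wild-type DS, both of which passed. *Kcnip3* stood at 137, 122 and 128 against 87.3, 89.3 and 85.7 CPM in the wild-type Acb (log2 0.51, SE 0.14, adjusted p = 0.00854) and passed in the DS of both genotypes, at 0.47 and 0.38. No heavy polysome library of the wild-type Acb overlapped a whole lysate library for either gene.

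All 6 of these calls were lost when a trend on coding length was removed from each library. The coding sequences are 852 bases for *Kcnip3* and 750 for *Kcnip4*, where the median member has 1542, and over the 61 members with a length the Spearman correlation of the heavy to whole lysate difference with coding length was -0.18 in wild-type and -0.27 in knockin Acb and -0.26 in wild-type and -0.41 in knockin DS, as a description across genes of the same libraries. Single libraries also ended calls of both genes, namely for *Kcnip4* replicate 2 of the whole lysates in the wild-type Acb (adjusted p = 0.0625) and in the wild-type DS (0.0566), and for *Kcnip3* replicates 1 and 3 of the heavy polysomes and 2 and 3 of the whole lysates in the wild-type DS (up to 0.153) and replicate 2 of the heavy polysomes or any whole lysate library in the knockin DS (up to 0.138).

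*Kcnip2* differed from its relatives. In the knockin Acb it stood at 166, 119 and 116 CPM in heavy polysomes and at 223, 246 and 247 CPM in whole lysates, without overlap (log2 -0.86, SE 0.17, adjusted p = 6.5e-04). In wild-type Acb the values were 224, 164 and 145 against 214, 212 and 212 CPM, which overlapped. The difference between genotypes in this ratio was -0.54 (SE 0.23) and did not pass (adjusted p = 0.343). In the DS the heavy to whole lysate difference of *Kcnip2* was -0.11 in wild-type and 0.13 in knockin mice, and neither passed.

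Of the 7 calcium- and sodium-activated channel genes, 3 were lower in DS heavy polysomes in each genotype, where 11.5% (wild-type) and 14.8% (knockin) of all genes were lower, and 1 in the wild-type Acb (*Kcnt1*), where 12.9% were, and 0 were higher in any comparison. *Kcnt1*, which encodes the sodium-activated channel Slack, stood at 29.0, 40.2 and 39.2 CPM in heavy polysomes and 64.6, 61.5 and 54.7 CPM in whole lysates of the wild-type Acb (log2 -0.79, SE 0.17, adjusted p = 0.00109). It passed in both genotypes of the DS, at -0.91 and -0.50, and in the wild-type comparisons it lost the call when the coding length trend was removed. *Kcnn3* was lower in DS heavy polysomes of wild-type (log2 -1.07, adjusted p = 0.0151) and knockin mice (-0.89, adjusted p = 0.00232), where the first was lost without replicate 1 or 3 of the heavy polysomes or 1 or 2 of the whole lysates (adjusted p up to 0.0757) and the second with the coding length trend removed. *Kcnmb4* was lower in wild-type Acb heavy polysomes, at 13.6, 11.9 and 7.64 against 17.4, 21.3 and 20.2 CPM without overlap (log2 -0.88, SE 0.26, adjusted p = 0.0115), a call lost without replicate 3 of the heavy polysomes (0.0979).

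In wild-type Acb heavy polysomes the Kv3.2 gene *Kcnc2* (log2 0.64), the silent subunit gene *Kcns2* (0.59) and *Kcna5* (0.60) were higher, and without replicate 3 of the heavy polysomes the first pair lost the call (adjusted p 0.0731 and 0.0781). *Kcnk1*, which encodes the weak leak channel TWIK-1, was higher in heavy polysomes of the knockin Acb (0.70) and the wild-type DS (0.74), and in the knockin Acb it lost the call with either length trend removed and without replicate 2 of either kind of RNA (adjusted p up to 0.101). *Kcnd1* (-2.17) and *Kcnt2* (-1.16) were lower in wild-type DS heavy polysomes at few reads, with 1, 19 and 50 reads of *Kcnd1*, and *Kcnd1* lost its call without replicate 2 or 3 of the whole lysates (up to 0.122) and *Kcnt2* without replicate 1 or 2 of either kind of RNA (up to 0.241). *Kcnip1* (0.79) was higher there and lost its call without replicate 1 of either kind of RNA or replicate 2 of the whole lysates (up to 0.207).

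In the knockin DS *Kcnh7* (log2 -1.47), *Kcnj6* (-0.96), *Kcng1* (-0.87) and *Kcna6* (-0.53) were lower in heavy polysomes, and *Kcna6* was lower in those of the wild-type Acb too (-0.48, adjusted p = 0.0345, with overlap). *Kcnh7*, *Kcng1* and *Kcna6* lost the call without replicate 2 of the whole lysates (adjusted p 0.11, 0.2 and 0.0556), *Kcng1* also without replicate 2 or 3 of the heavy polysomes (up to 0.2), and *Kcnj6* without replicate 2 of the heavy polysomes (0.106). The noncoding *Kcnq1ot1*, a nuclear transcript antisense to *Kcnq1* that was counted by strand, stood at 60.4, 48.2 and 71.3 CPM in heavy polysomes and 62.4, 53.9 and 53.9 CPM in whole lysates of the wild-type Acb, which overlapped, and it did not pass in any comparison.

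**Figure D4:**
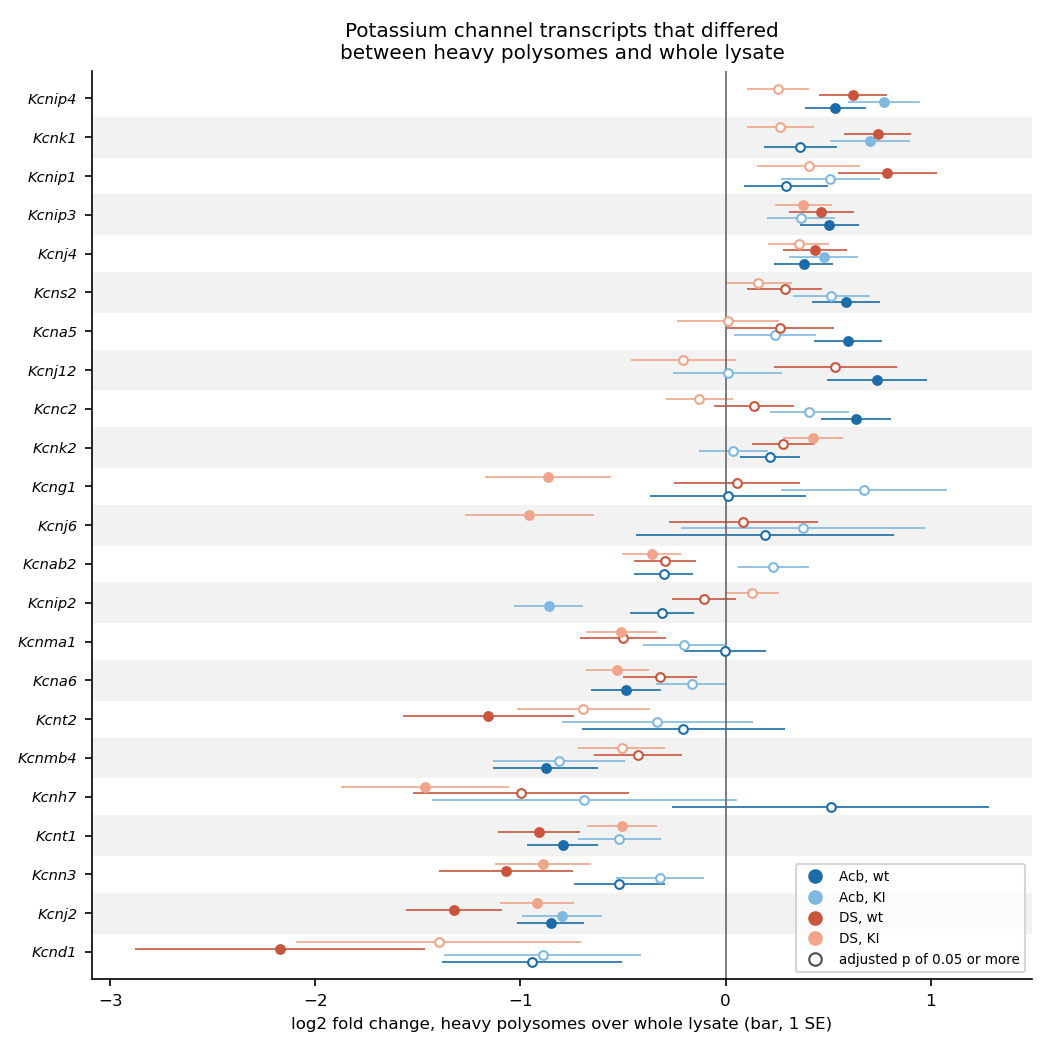
Log2 fold change of heavy polysomes over whole lysate, with 1 SE, for 23 of the 24 members that passed in at least 1 of 4 comparisons, where filled points had an adjusted p under 0.05 (edgeR) and colours mark region and genotype. Kcnj2 alone has 4 filled points, all below 0, while Kcnip3, Kcnip4 and Kcnj4 each have 3 filled points above 0.

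The comparison of knockin with wild-type mice addressed whether loss of rpS6 phosphorylation changed channel transcripts. By the edgeR test 0 of 62 members passed in any of the 4 comparisons, where 0% of all genes passed in Acb heavy polysomes, 0.00650% in Acb whole lysates, 0.0440% in DS heavy polysomes and 0.122% in DS whole lysates. At an unadjusted p under 0.05 there were 5 members in Acb heavy polysomes against 21.7% of all genes, 1 in Acb whole lysates against 2.96%, 4 in DS heavy polysomes against 6.42% and 8 in DS whole lysates against 9.07%. These were 8.06%, 1.61%, 6.45% and 12.9% of the members. DESeq2 called 3, 0, 0 and 1 members in the same order. The median SE of a member's log2 difference was 0.18 in Acb heavy polysomes, 0.22 in Acb whole lysates, 0.23 in DS heavy polysomes and 0.17 in DS whole lysates.

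The 3 members with the lowest p in Acb heavy polysomes were the 3 genes of 1 subfamily, the Kv-beta subunits, which bind Kv1 channels in the cytoplasm, alter their inactivation and carry an oxidoreductase fold. *Kcnab3* stood at 24.5, 26.5 and 25.2 CPM in knockin and at 14.2, 18.0 and 15 CPM in wild-type mice (log2 0.73, SE 0.18, adjusted p = 0.0992). *Kcnab2* stood at 211, 202 and 289 against 147, 165 and 151 CPM (log2 0.64, SE 0.17, adjusted p = 0.106). *Kcnab1* stood at 346, 362 and 443 against 255, 304 and 265 CPM (log2 0.52, SE 0.16, adjusted p = 0.114).

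None of the 3 overlapped between genotypes, and none passed the edgeR test. DESeq2 called all 3, with 6.72% of all genes called, an edgeR fit without the filter on low counts called *Kcnab2* and *Kcnab3*, and an edgeR fit of all 24 libraries called *Kcnab1* and *Kcnab2*. Of the 62 members 8 were higher and 6 lower without overlap in this comparison, against 29.6% of the 11979 genes with a mean of at least 50 reads that did not overlap in either direction. In DS heavy polysomes *Kcnab3* stood at 15.3, 17.6 and 18.4 CPM in knockin and at 18.4, 27.9 and 20.7 CPM in wild-type mice, and in whole lysates of the Acb at 12.7, 32.8 and 20.0 against 19.5, 12.1 and 19.0 CPM.

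**Figure D5:**
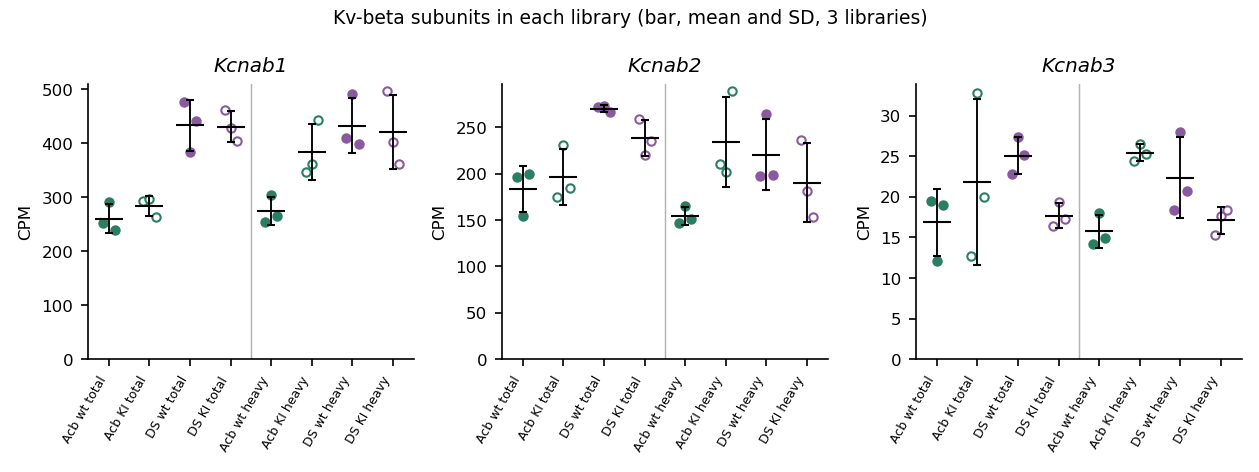
CPM of the 3 Kv-beta genes in each of the 24 libraries by group, whole lysates left of the grey line and heavy polysomes right of it, with Acb in green, DS in purple, knockin libraries as open circles, and bars for the mean and SD of 3 libraries. In Acb heavy polysomes every knockin library of each gene lies above every wild-type library, with adjusted p of 0.0992 to 0.114 by edgeR.

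In DS whole lysates *Kcnma1* (0.45, adjusted p = 0.272 by edgeR) and *Kcnv1* (0.36, adjusted p = 0.331) were among the members with the lowest p. In DS heavy polysomes *Kcnj2* (0.63), *Kcnma1* (0.51) and *Kcnip1* (-0.57) and in Acb whole lysates *Kcnk1* (-0.51), *Kcne1l* (-0.89) and *Kcnj5* (-1.57) had the lowest p, with adjusted p of at least 0.715.

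The interaction terms asked whether 1 difference depended on another factor. For genotype by region, 0 members passed in heavy polysomes, against 0.00592% of all genes, with 5 members at an unadjusted p under 0.05 against 13.8%, and 0 passed in whole lysates, against 0.00611%, with 3 against 5.11%. The knockin to wild-type difference of *Kcnab3* in heavy polysomes was larger in the Acb than in the DS by 1.12 on the log2 scale (SE 0.30, adjusted p = 0.109), that of *Kcnab2* by 0.86 (SE 0.26, adjusted p = 0.144) and that of *Kcnab1* by 0.57 (SE 0.23, adjusted p = 0.27). In whole lysates the same term was 0.88 for *Kcnab3* (SE 0.37) and 0.29 for *Kcnab2* (SE 0.16), with adjusted p of at least 0.953, and in DS whole lysates both genes were lower in knockin mice without overlap at -0.52 (SE 0.21, adjusted p = 0.423) and -0.20 and did not pass. For genotype by region in heavy polysomes DESeq2 called 2 members, *Kcnab3* and *Kcnab2*, with 1.40% of all genes called. It called 0 members in the other interactions.

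For genotype by fraction, 0 members passed in the Acb, against 0% of all genes, with 4 at an unadjusted p under 0.05 against 11.9%, and 0 in the DS, against 0%, with 4 against 4.90%. Among the members with the lowest p were *Kcnip2* (-0.54), *Kcnab2* (0.54) and *Kcnj9* (-0.59) in the Acb and *Kcna1* (-0.44) and *Kcnj6* (-1.01) in the DS. For fraction by region in wild-type mice, 0 members passed, against 0%, with 1 at an unadjusted p under 0.05 against 4.60%, which was *Kcnj3* (SE 0.44 around a difference of 1 on the log2 scale). The median SE of a member's interaction ranged from 0.28 to 0.30.

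Genes whose products assemble with, anchor or traffic potassium channels were followed as 1 list of 30, of which 29 were tested. In the regional comparisons 3, 3, 2 and 3 were higher and 9, 8, 3 and 5 lower in the Acb, in the order wild-type and knockin whole lysates, wild-type and knockin heavy polysomes, against 6.54%, 4.84%, 4.72% and 7.89% of all genes higher and 6.15%, 6.03%, 3.43% and 10.7% lower, with list medians of -0.18, -0.19, -0.20 and -0.09. Between heavy polysomes and whole lysates 8, 1, 4 and 5 were higher and 6, 4, 6 and 6 lower in wild-type and knockin Acb and wild-type and knockin DS, against 13%, 7.70%, 12.8% and 13.8% of all genes higher and 12.9%, 9.50%, 11.5% and 14.8% lower. By edgeR, 0 of 29 passed in any genotype or interaction comparison.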

How the data were processed

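Polyadenylated RNA of 24 libraries was sequenced as single-end reads of 50 bases. The deposited values are raw counts of reads per gene, which the authors made with TopHat2 2.0.13, Bowtie2 2.2.3 and HTSeq 0.6.1p1 (union mode, opposite strand) on mm10 with UCSC gene models, dropping alignments with more than 3 mismatches, and left unnormalized and unfiltered. Every column matched a sample. Lengths came from GENCODE M21 by Entrez identifier (61 of 62 members) and positions and promoters from RefSeq (GRCm38.p6).

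Genes with under 15 reads summed over the libraries compared were removed, as in the paper, and groups were compared with edgeR 4.0.16 (R 4.3.3; TMM scaling, quasi-likelihood F test with legacy settings, only the groups compared in each fit), with Benjamini-Hochberg adjustment over all genes tested and 0.05 as the threshold. The SE is the log2 fold change divided by the root of F. In simulated counts with 200 genes changed by 1.5 on the log2 scale, edgeR found 170 with 10 other calls for heavy polysomes against whole lysate in the wild-type Acb (15627 genes), 169 with 7 for Acb against DS in wild-type whole lysates (15191), 192 with 8 for genotype in Acb heavy polysomes (15891) and 145 with 9 for genotype by region in heavy polysomes (16572). The changes were placed only in genes with a mean of at least 50 reads. The largest genotype difference of a member in Acb heavy polysomes was 0.73, and sensitivity to changes of that size was not measured.

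The members, the families, the list of channel partners and the 8 lists of cell type markers were chosen with earlier results of these data known. Named were, per comparison, up to 6 members in each direction by size of change among those that passed without overlap between groups, the 3 with the lowest p where fewer than 3 passed, and the highest member per kilobase of each family. Members beyond this rule, named to complete a subfamily or as neighbours, were chosen after their values were seen. Alternatives were DESeq2 1.42.0 (Wald test, or its size factors in edgeR), no filter beyond 1 read, filterByExpr, all 24 libraries in 1 fit, removal of a transcript length trend (loess, span 0.5), a replicate block, leaving out each replicate and, added after seeing the data, a coding length trend and the bias-adjusted quasi-likelihood test. By the study's methods, input RNA was kept from each lysate, and each heavy polysome replicate combined fractions of different samples. Whether the inputs were combined alike is not stated. For the block by lysate, heavy polysome and whole lysate libraries of the same number were taken to match. The correlation of their deviations from group means ranged from -0.0376 to 0.0743, with 0 of 12 pairs above 0.1. Figures were drawn with matplotlib 3.10.9. 1 member counted here is not reported by name or drawn.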

Additional observations from a re-analysis of the deposited data

How the results depend on the processing

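Counts of members that passed were within 1.5 times of those reported under most alternatives. For heavy polysomes against whole lysate, the 5 of the knockin Acb became 8 with DESeq2, 9 with all 24 libraries in 1 fit, 9 with the bias-adjusted test and 3 (0 higher, 3 lower) with the coding length trend removed, the 10 of the wild-type DS became 16 (9 higher, 7 lower) with the transcript length trend removed and kept 11 (4 higher, 7 lower) with the coding length trend removed, and the 12 of the knockin DS became 7 with all 24 libraries and 11 (5 higher, 6 lower) with the transcript length trend removed. For Acb against DS in heavy polysomes, the 13 of wild-type mice became 20 (8 higher, 12 lower) with the transcript length trend removed and 25 (8 higher, 17 lower) with the coding length trend removed, which also moved the median of all genes from 0.03 to -0.14 under both, and the 13 of knockin mice became 19 (8 higher, 11 lower) and 23 (10 higher, 13 lower). For knockin against wild-type, the 0 of Acb heavy polysomes became 2 without the filter, 3 with DESeq2 and 2 with all 24 libraries, the 0 of DS whole lysates became 1 with DESeq2, and the 0 of genotype by region in heavy polysomes became 2 with DESeq2 and 1 with all 24 libraries. The causes were not tested, and the counts in this paragraph stand without the share of all genes under the same setting.

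Leaving out each library in turn gave 6 to 10 members in the wild-type Acb, 3 to 6 in the knockin Acb, 4 to 14 in the wild-type DS and 5 to 13 in the knockin DS for heavy polysomes against whole lysate, and 14 to 18 and 12 to 19 in whole lysates and 6 to 13 and 10 to 14 in heavy polysomes (wild-type, then knockin) for Acb against DS. For genotype and all interactions the counts were 0 to 0. Counts moved by over 1.5 times without replicate 3 of the wild-type Acb heavy polysomes (6) and replicate 2 of the knockin Acb heavy polysomes (3), without replicate 1 of the heavy polysomes (6) or 2 of the whole lysates (4) of the wild-type DS, and without replicate 2 of the knockin DS whole lysates (5), and for Acb against DS without the last library (12) and in wild-type heavy polysomes without replicate 2 or 3 of the Acb (6 each) or 3 of the DS (8).

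With a replicate block by lysate the fraction counts were 12, 7, 10 and 14 (wild-type and knockin Acb, wild-type and knockin DS), and of the members called without it only *Kcnj4* in the knockin Acb lost its call. Same-numbered Acb and DS libraries, and same-numbered knockin and wild-type libraries, share only a number, with 1 of 12 and 2 of 12 correlations above 0.1, and a replicate block by number gave 22, 20, 20 and 12 in the regional comparisons, the third of them against 13, and 0 in the genotype comparisons, while a block by number or lysate gave 0 in every interaction. Of the 101 results for named members, 1605 alternative values kept their direction and 0 reversed, 1450 kept the side of the threshold, 144 lost the call and 11 gained it. Of the 43 named regional results 39 held under every fit that kept all libraries, and of the 31 fraction results 12, while 19 of the 43 and 19 of the 31 lost the call without at least 1 library. Members with few reads, such as *Kcnj5*, *Kcnd1* and *Kcnh7*, had the widest SE, and differences of their size were not detectable in every group at this depth.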
